A study of Xenopus laevis with 6 samples.

Results

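Mucin genes were examined in whole Xenopus laevis embryos raised in a dilute or a more concentrated salt medium. The set holds muc2l.L, LOC108715183 (annotated as mucin-5AC) and the genes whose symbol begins with muc and a digit or whose product name contains "mucin-", limited to the 10 with the highest mean level. The names matched 30 of the 42638 genes in the deposited count table, and the limit left 10 members. Levels are given as CPM (counts scaled to a common library size by the TMM method). The last gene inside the limit was LOC108711676 (mucin-17) at a mean of 39.9 CPM, and the first outside it was LOC108712806 (mucin-16) at 33.5 CPM. Because muc2l.L and LOC108715183 were picked for their difference between the media in these same samples, that difference is described here and not tested. The other 8 members were picked by name and mean level alone.

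All embryos were wild type, were fertilized in vitro in 0.1X MMR (Marc's Modified Ringer's, a frog saline) and were kept at 14 °C. Some were moved to 0.75X MMR at stage 9, a blastula stage, while the rest stayed in 0.1X MMR, and both groups were collected on day 7 at stage 35, a tailbud embryo. Each medium has 3 samples, and each sample is RNA from 10 pooled whole embryos, so differences between single embryos are not visible. The study's methods describe the replicates of its experiments as independent samples from separate batches, while the labels name no clutch or batch for a pool and do not tie a pool of one medium to a pool of the other. With 0.75X MMR the medium is more concentrated in every one of its salts at once, so that no single ion is tested.

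Mucins are large secreted or membrane-bound glycoproteins in which long stretches rich in serine, threonine and proline carry dense O-linked sugars. The gel-forming mucins (in humans the MUC2, MUC5AC, MUC5B and MUC6 type) are stored in granules, swell when released and link into a mucus gel. The membrane mucins (in humans the MUC1, MUC3A, MUC4, MUC16 and MUC17 type) stay on the apical cell surface and form its glycocalyx. In the Xenopus embryo, mucus is made by goblet cells and small secretory cells of the outer epidermis, which lie among multiciliated cells and ionocytes, and by the cement gland, the adhesive organ of the head. The product names here come from automated annotation of the genome, so that a name such as mucin-2 marks a resemblance to a human mucin and not a known role in the frog. The protein of muc2l.L is annotated only as a hypothetical protein.

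Library totals ran from 5024957 to 7045215 counts, and 3 counts stood at 0.429 to 0.604 CPM. Markers of muscle, epidermis, nervous system, cartilage, blood and liver were all present, as the label of a whole embryo requires, and 0 of 28 such genes were without counts throughout. The level of a gene in a whole embryo does not say which cells made it, and fewer cells of a type cannot be told apart from less RNA per cell. The epidermal origin of these mucins was therefore not checked beyond the presence of goblet cell markers, among which itln1.L (intelectin, a lectin that goblet cells secrete) stood at 2312 CPM and otogl2.L (annotated as otogelin, a relative of the gel-forming mucins) at 2633 CPM.

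As a group, the mucins took between 0.308% and 0.619% of all counts of a sample. Ordered by mean CPM over the 6 samples, muc2l.L was at 1252 CPM, LOC108715183 at 1115 CPM, LOC108697796 (mucin-2) at 1044 CPM, LOC108716195 (mucin-4) at 638.01 CPM and LOC108715209 (mucin-5B) at 325 CPM. These 5 genes held between 85.6% and 93.3% of the counts of all 30 mucin genes in every sample. After them came LOC108695967 (mucin-4-like) at 78.8 CPM, LOC121394508 (mucin-3A-like) at 53.3 CPM, a further gene annotated as mucin-2, LOC108704680, at 48.2 CPM, LOC121394509 (mucin-2-like) at 40.8 CPM and LOC108711676 (mucin-17) at 39.9 CPM. The ranges over samples of neighbours in this order overlapped except around mucin-5B. Every sample of this gene, from 279.8 to 360 CPM, lay below every sample of mucin-4, from 427 to 966 CPM, and above every sample of mucin-4-like, from 48.1 to 98.5 CPM. CPM counts reads and was not divided by transcript length, so this is an order of shares of the reads, in which a long transcript stands higher than a short one with as many molecules.

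**Figure D1:**
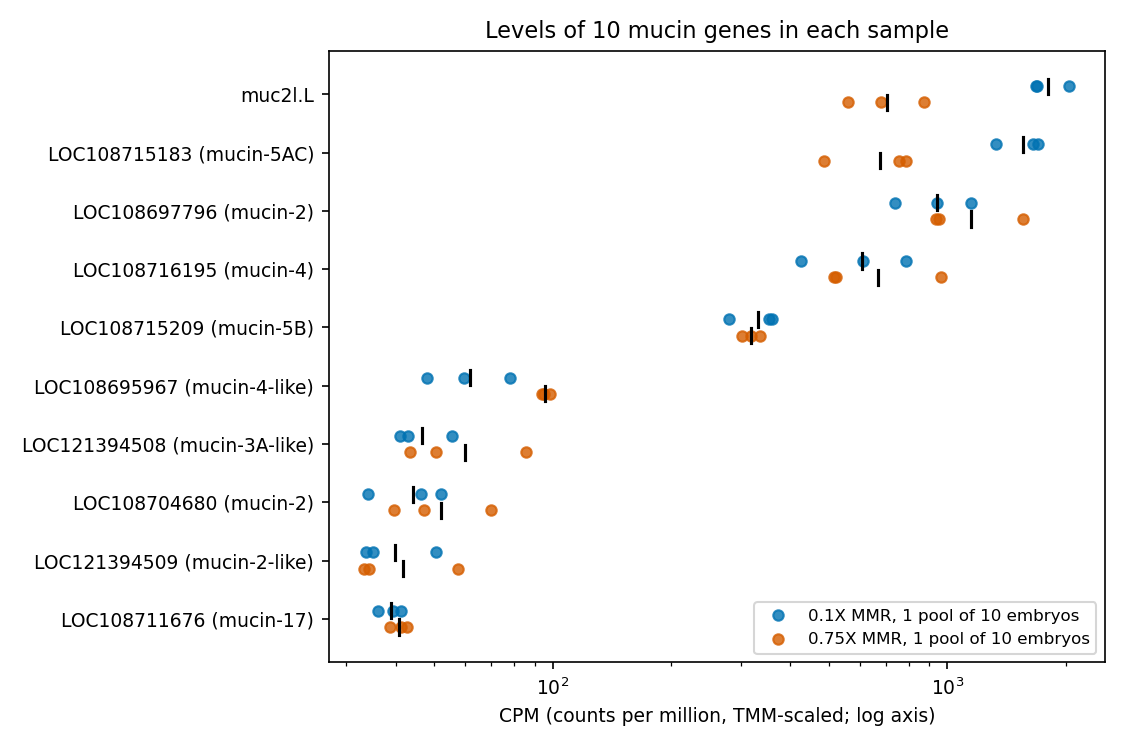
Level of each of the 10 mucin genes in each of the 6 samples, as CPM on a log axis, with blue points for 0.1X MMR, orange points for 0.75X MMR and a black line at the mean of 3 samples. Only muc2l.L, LOC108715183 and, in the opposite direction, LOC108695967 have media that do not overlap.

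In the transcriptome of the whole embryo, muc2l.L had the rank 43 by mean CPM, LOC108715183 the rank 51 and LOC108697796 the rank 56 of 42638 genes. Sample by sample, muc2l.L ranked 28, 21 and 27 in the dilute medium (replicates 1 to 3) against 64, 134 and 102 in the concentrated one. LOC108715183 ranked 29, 27 and 43 in 0.1X MMR, then 76, 166 and 85 in 0.75X MMR. LOC108697796 kept ranks between 25 and 90 over all samples, and mucin-4 ranks between 60 and 207. Mucin-5B (LOC108715209) ranked between 273 and 421. The 5 members below it ranked between 1894 and 6891 in single samples, still above 79.4% or more of the genes tested when ordered by mean CPM.

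The 2 genes with the most reads were lower in 0.75X MMR. The gene muc2l.L, on chromosome 4L from 19705852 to 19741623 in genome version 10.1, had 1675, 2039 and 1687 CPM in 0.1X MMR and 873, 559.6 and 679.03 CPM in 0.75X MMR. Every sample in 0.1X MMR lay above every sample in 0.75X MMR, and the lowest of the former was 1.92 times the highest of the latter. The means were 1800.3 ± 206 CPM and 704 ± 158 CPM (each SD, n = 3). The edgeR fit gave a log2 fold change of -1.35. Its standard error, derived from the F statistic of the same contrast, was 0.13. For genes chosen by this contrast, a standard error is not read as a test.

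LOC108715183, on chromosome 4S from 4962888 to 5001493, had 1643, 1694 and 1328 CPM in 0.1X MMR and 788, 487 and 753 CPM in 0.75X MMR. Here too the media did not overlap, and the gap was 1.69-fold. Its log2 fold change in the edgeR fit was -1.20 with a standard error of 0.15. Of all 28075 genes tested, edgeR (quasi-likelihood F, Benjamini-Hochberg adjusted) called 0.0107% lower and 0.00712% higher in 0.75X MMR with an FDR limit of 0.05, and in 4.99% the 3 concentrated-medium samples were the lowest of the 6. Both genes were chosen for this contrast, so nothing is read from these shares. Leaving out each sample in turn, the log2 fold change lay between -1.54 and -1.21 for muc2l.L and between -1.33 and -1.01 for LOC108715183.

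The pair stands at matching places of the L and S subgenomes that Xenopus laevis carries from its 2 ancestral species. On 4L the protein-coding gene before muc2l.L is slc5a12.L, a sodium-coupled monocarboxylate transporter gene, at a distance of 21285 bases. On 4S the protein-coding gene after LOC108715183 is slc5a12.S, at 9341 bases. RSEM, the program that made the counts, divides a read that matches several genes between them, which leaves counts that are not whole numbers. Neither gene had a whole count in any of the 6 samples, yet their sums were 23199, 22971 and 14972 counts in 0.1X MMR and 10033, 5889 and 8767 counts in 0.75X MMR, whole in every sample within 0.011 counts. No other gene of the table completed either of them in this way. Some reads were therefore divided between exactly these 2 genes, and how many was not visible in the table.

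A sum over the pair does not depend on that division. It was 3318, 3732 and 3015 CPM in 0.1X MMR and 1660.1, 1047 and 1432 CPM in 0.75X MMR, again without overlap. Its mean was 3355 ± 360.02 CPM in the dilute and 1380 ± 310 CPM in the concentrated medium (SD, n = 3 each), and edgeR put the log2 fold change at -1.28 with a standard error of 0.13. The ratio of muc2l.L to LOC108715183 was 1.02, 1.20 and 1.27 in the dilute medium against 1.11, 1.15 and 0.902 in the concentrated one, and these ratios overlapped. Within 0.75X MMR both genes were lowest in replicate 2, at 559.6 and 487 CPM.

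**Figure D2:**
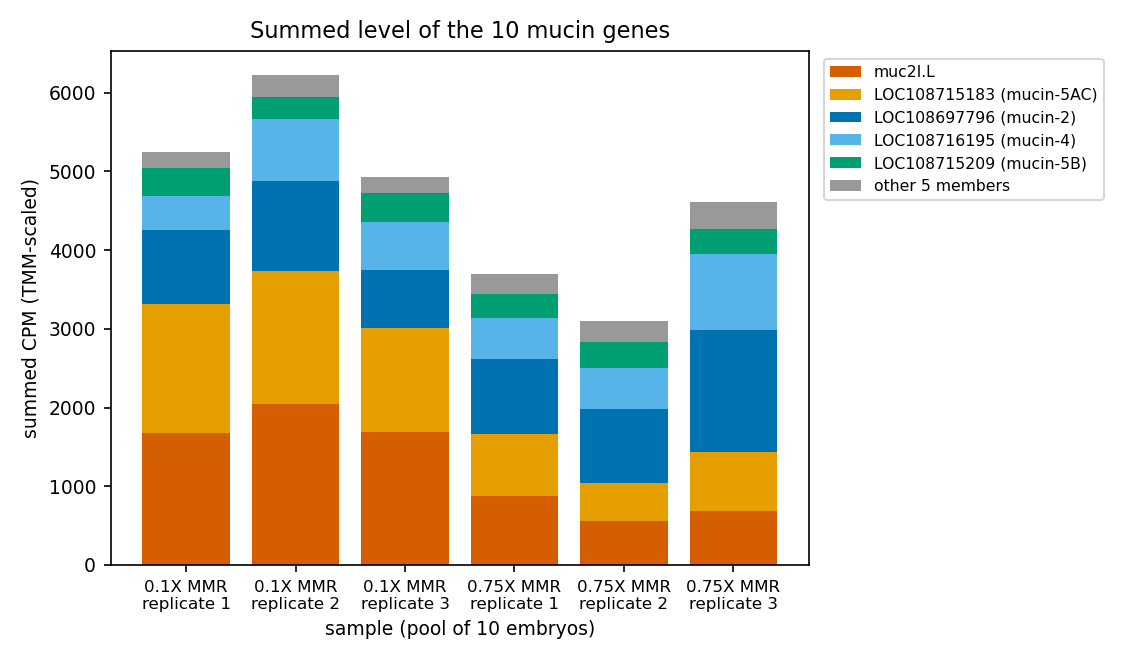
Summed CPM of the 10 mucin genes in each sample, stacked by gene from muc2l.L at the bottom to the other 5 members at the top. The muc2l.L and LOC108715183 segments together reach 3015 to 3732 CPM in 0.1X MMR and 1047 to 1660.1 CPM in 0.75X MMR, while the segments above them do not separate the media.

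Without this pair the mucins did not separate the media. The other 8 members together had 1930.2, 2490 and 1914 CPM in 0.1X MMR and 2031, 2057 and 3183 CPM in 0.75X MMR, with means of 2111 ± 328 CPM (SD, n = 3) and 2424 ± 658 CPM (SD, n = 3). The pair accounted for 58.1% to 61.4% of all mucin counts in 0.1X MMR and for 29.5% to 43.0% in 0.75X MMR. By edgeR, 0 of the 8 genes had an FDR under 0.05 in either direction, and 1 had an unadjusted p under 0.05, against 0.0178% and 4.39% of all genes tested. Their median log2 fold change was 0.19, with 7 of 8 above 0, where the median of all genes tested was 0.00 when rounded. By DESeq2 and by edgeR without a filter on low counts, 1 of the 8 passed the limit, the gene described next.

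That gene was LOC108695967, annotated as mucin-4-like, after a membrane mucin that covers many moist epithelia in mammals. It lies on chromosome 7L from 131992964 to 132055014. Its values were 59.6, 77.8 and 48.1 CPM in 0.1X MMR and 95.1, 98.5 and 93.8 CPM in 0.75X MMR. All samples in 0.75X MMR lay above all samples in 0.1X MMR, as in 4.72% of the genes tested, and they lay close together, while those in 0.1X MMR spread more widely. The log2 fold change was 0.63 with a standard error of 0.13 and a 95% confidence interval from 0.37 to 0.92 (limma-voom), and edgeR gave it an adjusted p of 0.231. By DESeq2 the adjusted p was 0.0106, by edgeR without a filter on low counts 0.0179 and, without replicate 2 of 0.1X MMR, the highest sample of that medium, 0.0393 by edgeR. Over all alternatives it ranged from 0.0106 to 0.800. The gene had whole counts in all 6 samples, so that no division of reads with another gene was visible.

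The gel-forming type of mucin-5B, LOC108715209 on chromosome 4S from 8088848 to 8096246, was among the steadiest of the members. It had 352, 280 and 360 CPM in 0.1X MMR and 303, 336 and 317 CPM in 0.75X MMR, with the second medium entirely inside the range of the first. The 95% confidence interval of its log2 fold change ran from -0.24 to 0.15 (limma-voom), around a value of -0.05. Added up with its neighbour LOC121393064 (mucin-5B-like), with which its reads were divided, it was also at -0.05. LOC108711676, annotated as mucin-17 after a membrane mucin of the mammalian gut, was steadier still, at 36.0 to 41.3 CPM in 0.1X MMR and 38.8 to 42.7 CPM in 0.75X MMR. Its 95% confidence interval ran from -0.13 to 0.27, so that for both genes a 2-fold difference between the media lay outside the interval.

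LOC108697796, annotated as mucin-2 and next after the pair by mean CPM, had 941, 1147 and 735 CPM in 0.1X MMR and 952, 937 and 1551 CPM in 0.75X MMR. Its media overlapped, and the log2 fold change was 0.29 (standard error 0.18, 95% confidence interval -0.11 to 0.64, adjusted p = 1.00 when rounded by edgeR), and 0.01 without replicate 3 of 0.75X MMR. It lies on chromosome 7S from 98920196 to 99033994, a span that also holds the annotated gene LOC121396556. Its counts were completed to whole numbers by a single gene, otogl2.L on 7L from 118823644 to 118875801. Within 200 kb, both have aldh16a1, flt3lg and nucb1 as annotated neighbours, with the L copies beside otogl2.L and the S copies beside LOC108697796. Mucin-2 on 7S and otogelin on 7L thus have matching neighbours, as muc2l.L and LOC108715183 do, although their product names differ. The gene otogl2.L had 2324, 2471 and 2765 CPM in 0.1X MMR and 2457, 2766 and 3015 CPM in 0.75X MMR, and the log2 fold change of both added up was 0.17 (adjusted p = 1.00 when rounded by edgeR). Summed over both loci, the chromosome 7 pair overlapped between the media, at 3265 to 3618 CPM in 0.1X MMR and 3409 to 4566 CPM in 0.75X MMR.

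**Figure D3:**
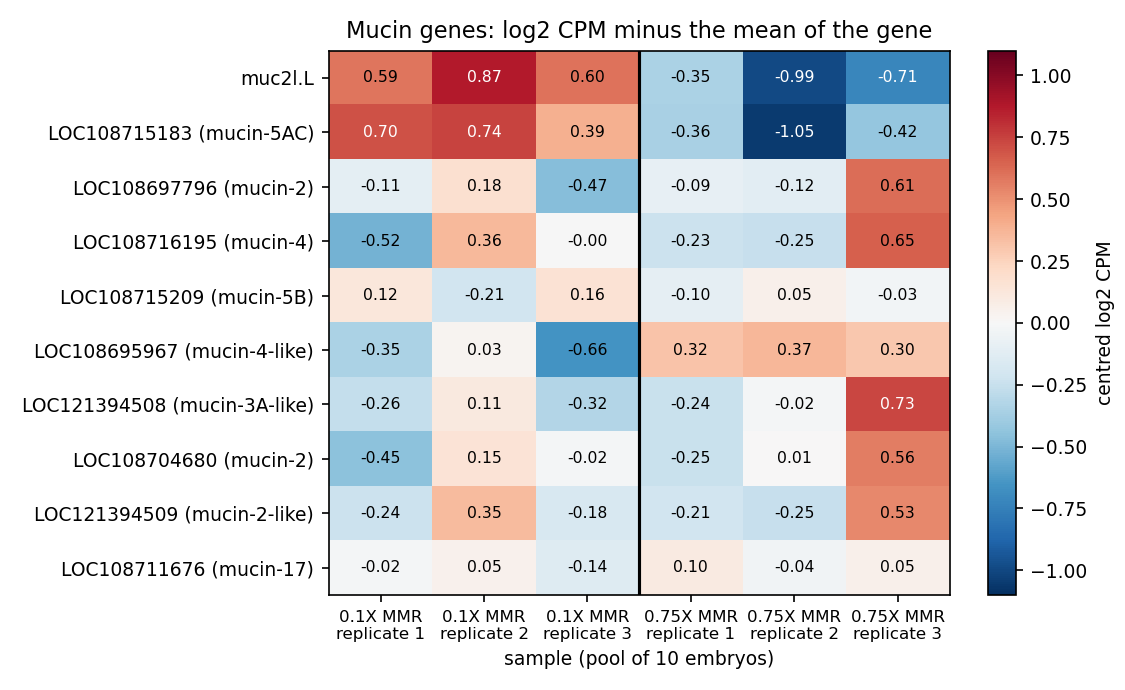
Log2 CPM (pseudocount 0.5) of each member minus the mean of that gene over the 6 samples, with red for higher and blue for lower. The first 2 rows change colour at the black line between the media, the mucin-4-like row does so in the opposite sense, and several other rows are highest in replicate 3 of 0.75X MMR.

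Besides the medium, the members differed between samples of the same medium. In 0.75X MMR, replicate 3 held the highest value of the 3 samples in 5 of 10 members, and in these 5 it was also the highest of all 6 samples. They were LOC108697796 (mucin-2), LOC108716195 (mucin-4), LOC121394508 (mucin-3A-like), LOC108704680 (mucin-2) and LOC121394509 (mucin-2-like), on chromosomes 7S, 5L, 6L, 1S and 6L. Over all genes tested, replicate 3 was the highest sample of 0.75X MMR in 34.1%. In 0.1X MMR, replicate 2 was highest in 9 of 10 members, against 33.3% of all genes tested. The median deviation of the 10 members from their mean in the medium was 0.26 on the log2 scale in replicate 2 of 0.1X MMR and 0.32 in replicate 3 of 0.75X MMR, where the medians of all genes tested were 0.00 when rounded. The summed level of the whole embryo markers was lowest in replicate 3 of 0.75X MMR, at 12453 CPM against 13961 to 16239 CPM in the other 5 samples. Muscle genes were low there: myh4.L at 1148 CPM against 1736 to 3018 CPM, and ckm.L at 2242 CPM against 2675 to 3252 CPM. Both myl1 genes were also lowest in that sample. By contrast, actc1.L at 1127 CPM and col2a1.L at 428 CPM lay inside the range of the other samples. The part of this difference in the mucin levels was not tested.

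Mucin-4 shows this pattern most clearly. LOC108716195, on chromosome 5L from 109006460 to 109044598, had 427, 785 and 613 CPM in 0.1X MMR and 521, 516.05 and 966 CPM in 0.75X MMR. The spread inside each medium, with SDs of 179 and 258 CPM (n = 3 each), was larger than the difference of the means, 608 against 668 CPM. The log2 fold change was 0.14 (adjusted p = 1.00 when rounded by edgeR), with a 95% confidence interval from -0.37 to 0.60, and it was -0.22 without replicate 3 of 0.75X MMR and -0.07 without replicate 1 of 0.1X MMR. The medium's effect on this gene was thus not determined within that interval.

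The 4 genes whose values over the 6 samples were nearest to those of mucin-4 stood beside it on the chromosome. This search was added after its values had been seen. Among 15357 genes with a mean of at least 10 CPM, the 4 whose centred log2 CPM lay nearest to that of mucin-4 were LOC121393928, LOC121393927, LOC121393929 and LOC108705319, with root mean square differences of 0.05, 0.07, 0.10 and 0.11 over the 6 samples. All 4 are annotated as serine-rich adhesin for platelets-like, a name taken from bacterial adhesins with serine-rich repeats, and with LOC121393133, another gene of that name, they fill 5L from 108852536 up to mucin-4. Places 5 and 6 went to mucins of other chromosomes, LOC108704680 (mucin-2, on 1S) at 0.14 and LOC121394509 (mucin-2-like, on 6L) at 0.15. LOC121393133 had place 8, at 0.17. Together the 5 genes had 2063, 3470 and 2817 CPM in 0.1X MMR and 2278, 2197 and 4629 CPM in 0.75X MMR, and all 5 were highest in replicate 3 of 0.75X MMR. None of them had an FDR under 0.05 by edgeR, with log2 fold changes from 0.06 to 0.29. The counts of mucin-4 were not whole in any sample, and no single gene completed them, and the part of divided reads in this likeness was not tested.

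The members on chromosome 6L form a second group of neighbours. LOC121394508 (mucin-3A-like, from 161634792 to 161649478) and LOC121394509 (mucin-2-like, from 161649519 to 161663697) are annotated as separate genes with 41 bases between them, inside a stretch of 111150 bases that holds 4 mucin genes. Their counts were also completed to whole numbers by each other, with sums of 535, 655 and 378 counts in 0.1X MMR and 470, 473 and 878 counts in 0.75X MMR. On its own, LOC121394508 had 42.9, 55.6 and 41.1 CPM in 0.1X MMR and 43.5, 50.8 and 85.9 CPM in 0.75X MMR, with a log2 fold change of 0.37 (adjusted p = 1.00 when rounded by edgeR), which was 0.02 without replicate 3 of 0.75X MMR. LOC121394509 had 33.6, 50.8 and 35.0 CPM and then 34.3, 33.3 and 57.6 CPM, with a log2 fold change of 0.07. Their sum was at 0.24, with a 95% confidence interval from -0.21 to 0.61, and the media overlapped in the genes and in the sum. The gene LOC108704680, a mucin-2 on chromosome 1S from 93120344 to 93140525 that lies beside an integumentary mucin gene (a type first described in frog skin), had 34.2, 52.1 and 46.3 CPM in 0.1X MMR and 39.5, 47.2 and 69.7 CPM in 0.75X MMR. Its log2 fold change was 0.25 with a 95% confidence interval from -0.17 to 0.64.

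Among the 20 mucin genes below the limit, 18 passed the filter on low counts and 0 had an FDR under 0.05 by edgeR, with 4 at an unadjusted p under 0.05, against 0.0178% and 4.39% of all genes tested. All 4 were higher in 0.75X MMR. Mucin-16 (LOC108712806), a membrane mucin of wet surfaces in mammals, had 11.4, 38.5 and 17.2 CPM in 0.1X MMR and 22.6, 51.3 and 60.1 CPM in 0.75X MMR. Its highest sample was 5.26 times its lowest, the media overlapped, and its log2 fold change of 1.00 had an adjusted p of 1.00 when rounded by edgeR. The cell surface mucin 1, a signalling membrane mucin in mammals, was at 22.5 CPM for muc1.L and 25.9 CPM for muc1.S, with log2 fold changes of -0.09 and -0.17. Over all 26 tested mucin genes that were not chosen for their difference, 21 were above 0 and 5 below, the median log2 fold change was 0.22, and 4 did not overlap between the media, 3 of them higher and 1 lower in 0.75X MMR (over all genes tested, 9.71% did not overlap). Of the 28 tested mucin genes, the chosen pair included, 15 were highest within 0.75X MMR in replicate 3, against 34.1% of all genes tested. Within 0.1X MMR, 19 of the 28 were highest in replicate 2, against 33.3%. The part of either replicate in the direction of the fold changes was not tested.

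**Figure D4:**
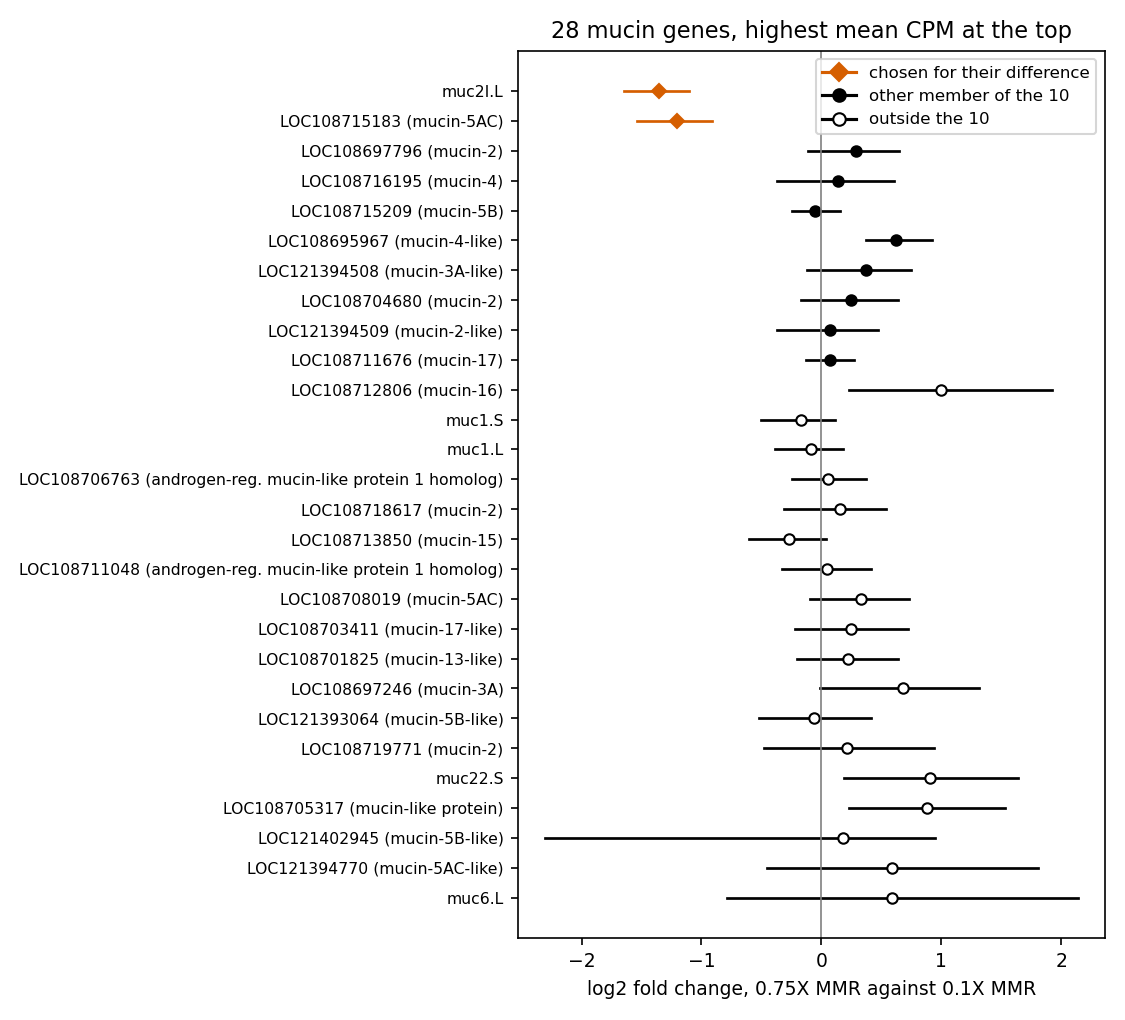
Log2 fold change of 0.75X against 0.1X MMR for the 28 mucin genes that passed the filter, as points from edgeR with 95% confidence intervals from limma-voom, with 3 samples in each medium. The orange pair is at -1.35 and -1.20. It was chosen for its difference in these same samples, so its intervals are no test of it. The interval of mucin-4-like runs from 0.37 to 0.92.

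No gene from other parts of the mucus pathway passed the FDR limit of 0.05. A list of genes for O-linked glycosylation, folding and granule release matched 66 tested genes, of which 0 were called in either direction, 4 had an unadjusted p under 0.05 with a higher value and 5 with a lower value in 0.75X MMR, and the median log2 fold change was -0.03. Of all genes tested, 0.0178% were called and 4.39% had an unadjusted p under 0.05. Without overlap between the media, 7 of the 66 genes were higher and 6 lower in 0.75X MMR, against 9.71% of all genes tested. The most abundant were pdia3.S and pdia3.L (a disulfide isomerase of the endoplasmic reticulum), with log2 fold changes of 0.01 and -0.06, snap23.L (a membrane fusion protein of secretory granules) at 0.02 and xbp1.L (a transcription factor for secretory capacity) at -0.05. By gene symbol, 19 of the 60 names on this list found no gene in the table. The list of goblet and small secretory cell genes matched 20 tested genes, with 0 called, 10 above and 10 below 0. At an unadjusted p under 0.05 by edgeR, 0 were higher and 2 lower in 0.75X MMR, against 4.39% of all genes tested. These 2 were agr2.L and agr2.S, at log2 fold changes of -0.41 and -0.25. Its goblet cell gene itln1.L had 2330, 2499 and 2201 CPM in 0.1X MMR, then 2209.9, 2218 and 2415 CPM in 0.75X MMR, with overlap. The 95% confidence interval of its log2 fold change ran from -0.18 to 0.10. This gene was named after its values were seen and does not stand for the rest of the list.

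The genes whose values over the 6 samples were most like those of muc2l.L were named by a rule that takes tested genes with a mean of at least 10 CPM and measures the root mean square difference of their centred log2 CPM. Since muc2l.L differs between the media, this rule also finds genes that differ between the media. LOC108715183 was the nearest of 15357 genes, at 0.16. It was chosen together with muc2l.L for the same difference, and some reads were divided between them, so nothing is read from this place. The next 5 were LOC108710050 (pleckstrin homology domain-containing family B member 1) at 0.36, ag1.L at 0.38, LOC121395080 (piggyBac transposable element-derived) at 0.39, LOC108703258 (carbonic anhydrase 4) at 0.39 and ag1.S at 0.41, where a gene with no variation at all would be at 0.72. Both ag1 genes encode anterior gradient 1, a secreted disulfide isomerase family protein of the Xenopus cement gland. Their levels were 97.2 to 124.7 CPM and 48.7 to 91.8 CPM for ag1.L and 88.6 to 111 CPM and 57.2 to 73.5 CPM for ag1.S, in 0.1X and 0.75X MMR in that order. The media did not overlap in either gene.

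Beside the lower pair of mucins, the markers of other mucus-producing or epidermal cells had the following levels, and their part in the mucin difference was not tested. The 11 tested cement gland genes summed to 418 to 458 CPM in 0.1X MMR and 300.4 to 376 CPM in 0.75X MMR, without overlap. Of these genes, 0 were called by edgeR and 4 had an unadjusted p under 0.05, all lower in 0.75X MMR, where 0.0178% and 4.39% of all genes tested did so in either direction. Because the cement gland list was drawn up with earlier results of these data known, nothing is read from these shares. Their log2 fold changes, with adjusted p values by edgeR, were -0.66 for ag1.L (0.566), -0.61 for ag1.S (0.126), -0.41 for agr2.L (0.755) and -0.25 for agr2.S (1.00 when rounded). Listed also with the goblet cell and mucus pathway genes, agr2 encodes a protein that folds mucins in mammals. By DESeq2, by edgeR without a filter and by limma-voom with surrogate variables, ag1.S passed the limit, with adjusted p values of 0.00258, 0.0101 and 0.0319. The summed goblet and small secretory cell genes overlapped, at 5174 to 5475 CPM in 0.1X MMR and 5178 to 5924 CPM in 0.75X MMR. Most of this sum was otogl2.L and itln1.L, at means of 2633 and 2312 CPM. It therefore says little about the other genes of that list, which had means of 73.2 CPM or less. The summed genes of basal epidermis and keratinocytes overlapped at 4613 to 5149 CPM and 4803 to 5113 CPM, and 0 of their 19 tested genes were called. The multiciliated cell genes overlapped at 643 to 754 CPM and 716 to 781 CPM with 0 of 24 called. The ionocyte genes overlapped at 1249 to 1402 CPM and 1263 to 1267 CPM, and 2 of 34 were called by edgeR, against 0.0178% of all genes tested. The gene atp12a.S (a proton and potassium pump) was higher, at a log2 fold change of 0.85 (adjusted p = 0.0272 by edgeR). The gene sgk1.L (a kinase that responds to salt and steroid) was lower, at -0.67 (adjusted p = 0.0289 by edgeR). This list was drawn up with earlier results of these data known, so nothing is read from that share. With the replicate number as a block 0 of the 34 were called, and the count was also 0 without replicate 1 or 3 of either medium, 1 without replicate 2 of 0.1X MMR and 3 without replicate 2 of 0.75X MMR. At an unadjusted p under 0.05, 4 ionocyte genes were higher and 8 lower in 0.75X MMR, against 4.39% of all genes tested. Without overlap between the media, 4 genes of the list were higher and 7 lower, against 9.71% of all genes tested. Nothing is read from these shares either. Among the lower ones were atp1b2.L (a sodium pump subunit) at a log2 fold change of -0.79, ca2.S (a carbonic anhydrase) at -0.60 and tfcp2l1.S (a transcription factor) at -0.57, with adjusted p values of 0.0626, 0.178 and 0.178 by edgeR. Also lower were atp6v1b1.L at -0.76, atp6v0d2.L at -0.59 and foxi1.L at -0.36, all without overlap and none past the limit by edgeR. The 4 higher ones at an unadjusted p under 0.05 by edgeR were atp12a.S, rhbg.L (an ammonium transporter) at 0.55, rhbg.S at 0.26 and atp12a.L at 0.25. Of these, atp12a.L overlapped between the media. The other copies atp1b2.S (-0.25), ca2.L (-0.33), tfcp2l1.L (-0.03) and sgk1.S (0.05) overlapped between the media. By mean level, tfcp2l1.L was at 114 CPM and tfcp2l1.S at 29.6 CPM. The gut endoderm genes lay at 2609 to 2927 CPM and 2341 to 2599 CPM without overlap, with 0 of 25 called, 11 genes above and 14 below 0 and a median log2 fold change of -0.03. Without apoa1.L and apoa1.S (apolipoprotein A1), the other 23 genes of that list overlapped, at 917 to 959 CPM and 924 to 933 CPM. In each of these 6 lists 0 genes were at 0 throughout.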

How the data were processed

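Adapters and low-quality reads were removed by the authors (fastp), alignment was to version 10.1 of the Xenopus laevis genome (STAR, 2-pass mode), and RSEM gave expression per gene. Versions of these tools are not given in the sources used here. The deposited expected counts (estimated counts from RSEM, not normalized) were used for every result, and 42.5% of nonzero values had a fractional part. The authors also deposited log2 CPM for 24661 genes, adjusted for surrogate variables, which supplied the product names and an alternative value.

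Counts were rounded to whole numbers for the tests. The filter of the study's methods (CPM above 0.6, 3 or more samples) kept 28075 of 42638 genes for testing. Media were compared mainly by edgeR 4.0.16 (TMM, quasi-likelihood F) with the medium as the only term and Benjamini-Hochberg adjustment over all genes tested, at an FDR limit of 0.05. Confidence intervals of 95% came from limma-voom (limma 3.58.1), the test that the study's methods name, without surrogate variables. Standard errors were the absolute log2 fold change divided by the square root of the edgeR F statistic, so they restate that statistic. The alternatives were DESeq2 1.42.0, edgeR without a filter on low counts, limma-voom with 2 surrogate variables from sva 3.50.0, edgeR with the replicate number as a block, the deposited adjusted values and leaving out each sample. R 4.3.3 and Python 3.11.15 were used. The fits by edgeR (with and without the block), DESeq2 and limma-voom (with and without surrogate variables) were tested on simulated data. The fits without a filter, with a sample left out or with summed genes were not.

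The members, the gene lists and the rules were chosen with earlier results of these data known. The genes named are the 10 members, those just below the limit and the 5 genes nearest to muc2l.L. From the ionocyte list they are the genes past the limit. From the mucus pathway and cement gland lists they are the 4 with the highest mean CPM. In the remaining lists this rule was not followed. Others were chosen after their values were seen: the neighbours of mucin-4 and of LOC108697796, the muc1 genes, itln1.L, otogl2.L and the apoa1 genes. So were the named embryo markers, cement gland and ionocyte genes with a low unadjusted p, and the other copies of such ionocyte genes. Coordinates, and chromosomes, are from the RefSeq gene list of the same genome version, which holds all 30 mucin genes. Between samples of one medium, chi-square per gene was 2.99 to 4.49, above counting error, so no library was counted as a repeat of another. Intervals and the level at 3 counts cover these samples and counting error only. No column was left without a sample.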

Additional observations from a re-analysis of the deposited data

How the results depend on the processing

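With all samples included, the count of genes past an FDR of 0.05 was 5 by edgeR and 5 by limma-voom without surrogate variables, 14 by DESeq2, 14 by limma-voom with 2 surrogate variables and 32 by edgeR without a filter on low counts. It was 1 to 10 when a sample was left out, with 1 without replicate 1 of 0.1X MMR, 2 without replicate 1, 10 without replicate 2 and 3 without replicate 3 of 0.75X MMR. With the replicate number as a block it was 2. Whether the numbers pair the samples was not determined. The deviations of same-numbered samples correlated at -0.03, -0.03 and -0.10 over 28075 genes. Those of differently numbered samples correlated at -0.04 to 0.07. With 3 samples in each medium, these values cannot decide whether pools share a clutch or batch. The ionocyte list had 2 genes past the limit by edgeR, 4 by DESeq2, 5 without a filter, 4 with surrogate variables, 0 with the block and 0 to 3 with a sample left out, where atp12a.S was past the limit only without replicate 2 of 0.75X MMR and sgk1.L only without replicate 2 of either medium. The cement gland list had 0, and 1 by each of DESeq2, edgeR without a filter and limma-voom with surrogate variables. Of the mucin genes that were not chosen for their difference, 0 passed by edgeR, 1 by DESeq2, 1 without a filter and 0 to 1 with a sample left out, and in each case it was LOC108695967. The cause of these differences was not tested. The mucus pathway, goblet cell, multiciliated cell, keratinocyte and gut lists had 0 in every fit.

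Under every alternative the log2 fold change lay between -1.54 and -1.21 for muc2l.L and between -1.33 and -1.01 for LOC108715183. Both genes were chosen for this difference in these same samples, so these ranges are no test of it. With a sample left out, the log2 fold change lay between -0.22 and 0.36 for LOC108716195, -0.16 and 0.01 (0.0103) for LOC108715209, -0.02 (-0.0163) and 0.41 for LOC108704680 and -0.23 and 0.29 for LOC121394509, so that the direction of these 4 genes was not determined. Without replicate 3 of 0.75X MMR it was 0.01 for LOC108697796 and 0.02 for LOC121394508. An order by level per kb of coding length was not run, because no transcript or coding lengths were used here. Sums over genes that share reads, and the gut list without apoa1, were added after the data were seen.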
